A study of Mus musculus with 30 samples.

Results

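The mouse immunoglobulin loci are the heavy chain locus (Igh, on chromosome 12) and the kappa and lambda light chain loci (Igk, on chromosome 6, and Igl, on chromosome 16). Members were all called regions that lay in 1 of 3 windows: chr12:114400000-117260000 for Igh, chr6:67450000-70750000 for Igk and chr16:19000000-19290000 for Igl. The windows hold 520 of the 624912 regions in 8 peak lists, with 274 in Igh, 211 in Igk and 35 in Igl. Coordinates are those of the lists, counted from 1, and run as those of the build mm9 do. An mm9 annotation was not used here, and regions are therefore given by position, with no assignment to gene segments, exons or regulatory elements.

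The series has 30 samples, of which 22 were not analysed here. In CH12, a mouse B lymphoma line, ChIP-seq with an antibody to Snf2h was made in wild-type cells and in a mutant line. The mutant line was edited with Cas9 and lacks zinc fingers 9 to 11 of CTCF on both alleles. In NIH3T3, an immortalized line of mouse embryonic fibroblasts, the cohesin subunits SMC1, RAD21 and SMC3 were each mapped in 2 lines. One line stably carries a control plasmid (empty vector, EV) that expresses beta-galactosidase, and the other stably expresses BORIS and is 1 clone, clone 2; both plasmids are CpG-free. Each combination of line and antibody is 1 list with no replicate, so no test between lines was made, and a difference between lines cannot be told apart from a difference between libraries or clones. The lists hold no expression values, so the labelled cell types could not be checked against marker genes. Snf2h was mapped in B-lineage cells and cohesin in fibroblasts, so an overlap between the 2 factors is one of positions.

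B cells assemble antibody genes from variable (V), diversity (D) and joining (J) segments by V(D)J recombination, and the joined segments are read together with a constant (C) gene. Cohesin extrudes chromatin into loops and stops at CTCF bound in a given orientation, which brings distant V segments near the recombination centre at the D and J segments. At Igh, an array of CTCF elements lies beyond the C genes and the 3′ regulatory region, and a control region with a pair of CTCF elements, IGCR1, separates the V from the D segments. At Igk, the elements Cer and Sis, which bind CTCF, lie between the V and the J segments. Snf2h is the ATPase of ISWI nucleosome remodelling complexes and helps space nucleosomes beside bound CTCF. BORIS (CTCFL) is the germ-cell paralogue of CTCF with a closely similar zinc finger domain. B-lineage lines carry rearranged immunoglobulin alleles, and fibroblasts keep the germline order; the copies of each segment in the CH12 lines were not measured here.

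In the GRCm38 gene table, Igh has 215 gene segments, and from low to high coordinate they run as 8 C, 4 J, 20 D and 183 V. The order at Igk is the opposite, with 162 V, 5 J and 1 C. Igl is small, with 4 C, 5 J and 3 V segments mixed along the locus. This table is of another build, so it gives names and order only. In what follows, the lower end of Igh is the end that holds the C genes in that order, and the upper end of Igk is the end that holds the J and C genes.

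The 3 loci differed in which of the factors they held. Igh had hardly any Snf2h region, with 1 in wild type and 2 in the mutant over 2.86 Mb. It held 34 to 58 cohesin regions, depending on the list. Igk had 25 Snf2h regions in wild type and 40 in the mutant over 3.30 Mb, but 19 to 27 cohesin regions per list. Igl, at 0.29 Mb, had 4 and 6 Snf2h regions and 2 to 6 cohesin regions. Over the genome, the lists have 6.71 (wild type) and 9.25 (mutant) Snf2h regions per Mb and 31.9 to 41.8 cohesin regions per Mb, over a span of 2580 Mb.

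**Figure D1:**
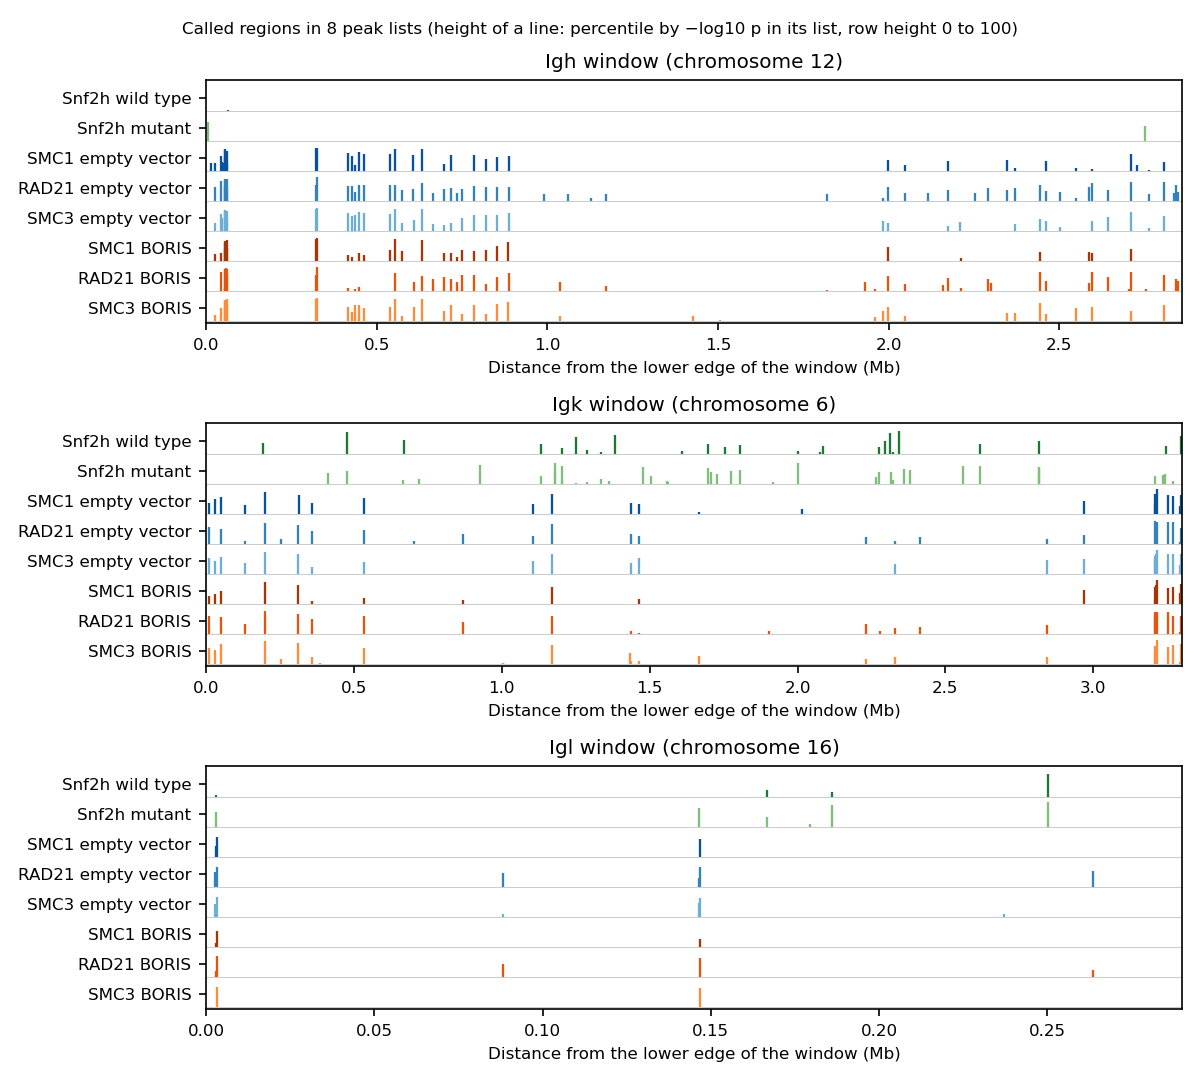
Positions of all regions in the 3 windows, one row per list. The x axis is the distance in Mb from the lower edge of the window, and each line marks a summit, its height the percentile of the region by −log10 p in its own list (0 to 100 over the row). Igh shows a dense cohesin cluster near its lower edge and almost no Snf2h, while Igk shows Snf2h regions through its middle and a dense cohesin cluster at its upper edge.

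At Igh the Snf2h density was 0.35 per Mb in wild type, 0.0521 times that of the genome (exact 95% Poisson interval 0.00132 to 0.29). In the mutant it was 0.699 per Mb, 0.0756 times the genome (0.00915 to 0.273). Both intervals lie below 1; they cover counting error only and take regions as independent, which neighbouring regions are not. Both values rest on the edges of the window: widened by 100 kb on each side, it was at 0.195 (wild type, 0.0531 to 0.499) and 0.212 (mutant, 0.0778 to 0.461) times the genome. No Snf2h region of Igh reached a −log10 q of 10. At that cutoff the intervals were 0 to 1.14 (wild type) and 0 to 0.639 (mutant), and the wild-type one includes 1. Such an empty stretch was not rare: of 892 windows of the same length laid end to end over the genome, 98 (11%) held 1 or no wild-type region and 115 (12.9%) held 2 or fewer mutant regions. Igk lay near the genome in both lines, at 1.13 times (0.731 to 1.67) in wild type and 1.31 times (0.936 to 1.78) in the mutant. Among regions with −log10 q at or above 10, 2 were left in each line, at 0.534 times (0.0647 to 1.93) and 0.3 times (0.0364 to 1.09). Both intervals include 1. In a window widened by 100 kb on each side the mutant was at 1.42 times (1.04 to 1.89). Igl was at 2.06 times (0.56 to 5.27) and 2.24 times (0.821 to 4.87), and with so few regions its intervals take in 1; the mutant value was 3.42 (0.414 to 12.3) at the stricter −log10 q and 1.32 (0.486 to 2.88) in the widened window.

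Cohesin was sparser than over the genome at Igh and Igk in each of the 6 lists. At Igh the EV lists held 42 (SMC1), 58 (RAD21) and 44 (SMC3) regions, and the BORIS lists held 34, 49 and 44. These are 0.3 to 0.62 times the genome's density, with a median of 0.381 over the 6 lists. Igk held 24, 27 and 24 regions in EV and 19, 26 and 26 in BORIS, or 0.145 to 0.25 times the genome, with a median of 0.188. Igk thus had less than Igh with every antibody in both lines. Among windows of the same length, 18.4% to 34.9% held as few cohesin regions as Igh or fewer, and 10.8% to 14.3% of 771 windows as few as Igk. The local background rate of reads at the summits also lay lower, with list medians of 1.16 to 1.51 at Igh and 0.982 to 1.28 at Igk against 1.68 to 1.99 genome-wide; its part in the counts was not tested. At Igl, where the counts were 3, 6 and 6 in EV and 3, 5 and 2 in BORIS, the ratio ran from 0.165 to 0.632.

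**Figure D2:**
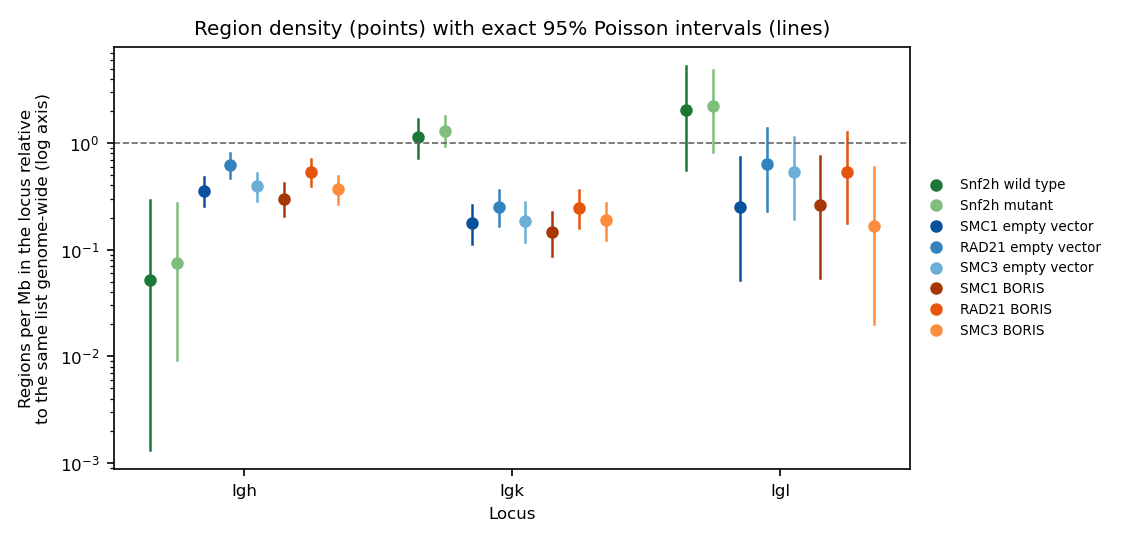
Regions per Mb in each locus divided by regions per Mb genome-wide in the same list, on a log axis. Points are the ratio for each of the 8 lists, lines are exact 95% Poisson intervals for counting error, and the dashed line marks equality. All 6 cohesin points of Igh and Igk lie below the line with their intervals, and Snf2h lies below it at Igh and near or above it at Igk and Igl.

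No locus had a number of regions that differed between the 2 NIH3T3 lines beyond counting error. At Igh, BORIS had 0.81 times as many SMC1 regions as EV (exact 95% interval 0.5 to 1.3), 0.845 times as many RAD21 regions (0.566 to 1.26) and as many SMC3 regions (ratio 1, 0.643 to 1.55). The whole of chromosome 12 also held fewer regions in the BORIS lists: 31.4 against 38.5 per Mb for SMC1, 25.1 against 31 for RAD21 and 33.5 against 36.4 for SMC3. At Igk the ratios were 0.792 (0.41 to 1.51), 0.963 (0.54 to 1.71) and 1.08 (0.598 to 1.97). At Igl they were 1 (0.134 to 7.47), 0.833 (0.201 to 3.28) and 0.333 (0.0329 to 1.86), the last from 2 SMC3 regions against 6. The whole lists have ratios of 0.96, 0.974 and 1.07. Each interval of a locus includes 1 and the ratio of its whole list.

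Cohesin regions of the 6 lists were merged where they overlap or touch, which gave 73 merged regions at Igh, 36 at Igk and 6 at Igl. At Igh, 24 of the 73 (32.9%, exact binomial interval 22.3 to 44.9) were called in all 6 lists, against 34.5% of the 150690 merged regions of the genome. At Igk it was 14 of 36 (38.9%, 23.1 to 56.5) and at Igl 2 of 6 (33.3%, 4.33 to 77.7). These shares are near the background. Among regions with −log10 q at or above 10, the counts in all 6 lists were 9 at Igh, 10 at Igk and 1 at Igl. Regions found in 1 list alone were 17 of 73 at Igh (23.3%) and 8 of 36 at Igk (22.2%), against 25.3% genome-wide.

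A region private to a line, called there with all 3 antibodies and in the other line with none, was rare in these loci. Igh and Igk each had 1 region private to EV (1.37% and 2.78% of the merged regions, against 1.61% genome-wide) and Igl had 0 of 6. None was private to BORIS: 0 of 73 at Igh (a limit of 3 counts over the total allows a share of up to 4.11%) and 0 of 36 at Igk (up to 8.33%), against 2.41% genome-wide. The EV-private region of Igh, chr12:117162317-117162514 near the upper edge, was weak. Its pileups, the recovered read depths at the summit, were 10 with SMC1, 14 with RAD21 and 13 with SMC3, at percentiles 3.58, 26.4 and 11.6 of its lists. The one of Igk, chr6:68556139-68556311, had pileups of 12, 11 and 15 and percentiles of 38, 31.5 and 49.1. Both lay in the lower part of their lists. These counts move with the definition: at Igh, with at least 2 antibodies in place of 3, there were 3 private to EV and 3 to BORIS, and leaving out an antibody gave 2 to 4 for EV and 0 to 2 for BORIS. At Igk, leaving out SMC1 or RAD21 gave 2 and 3 for EV, and the widened window of Igh held 3 private to BORIS.

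Along Igh, cohesin regions were unevenly spread. The first 0.4 Mb held 15 merged regions, 11 of them (73.3%) in all 6 lists. The remaining 2.46 Mb held 58, of which 13 (22.4%) were in all 6. In regions per Mb, the first 0.4 Mb had 27.5 to 37.5 depending on the list, below the genome's density in each list, and the remainder 8.94 to 18.7.

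Within the first 0.4 Mb, 13 merged regions formed an array over 45.6 kb, chr12:114415698-114461288, with a median spacing of 1.67 kb. Its core of 17.5 kb, chr12:114443819-114461288, held 9 regions called in all 6 lists. Merged regions of any list lay 25 kb apart in the median over Igh and 5.47 kb over the genome. Among regions in all 6 lists the spacing was 0.857 kb in the array, 32.7 kb over Igh and 17.3 kb over the genome. The array has 3 of the regions named by rank. Their authors' folds over background, in the order SMC1, RAD21 and SMC3, are given next and are values of their own list. At chr12:114460275-114460928 they were 14.9, 25.1 and 19.7 in EV and 13.8, 17.9 and 22.6 in BORIS. At chr12:114454155-114454521 they were 16.3, 23.9 and 16.8 in EV and 6.57, 15.4 and 10.3 in BORIS. At chr12:114456147-114456505 they were 11.8, 17.1 and 16.2 in EV and 8.93, 15.9 and 11.5 in BORIS. To set antibodies and lines side by side, ranks were taken as percentiles by −log10 p among the 51926 merged regions called in all 6 lists, so that every list is ranked over the same set. By this rank each of the 3 stood higher with RAD21 (67.8 to 78.6) than with SMC1 (43.2 to 69.8) or SMC3 (59 to 73.1) of the same line.

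Above the array, 262 kb held no cohesin region in any of the 6 lists. It ended at a pair of regions 2.62 kb apart, chr12:114723282-114723712 and chr12:114725892-114726338, both called in all 6 lists. The second of the pair is the highest-ranking cohesin region of Igh by the lowest of its 6 percentiles. Its folds were 29.4 (SMC1), 52.9 (RAD21) and 34.4 (SMC3) in EV and 22.3, 39.5 and 24 in BORIS, from pileups of 69, 119 and 83 and of 53, 89 and 57. It ranked between percentile 89 and 94.5 of each list. The first of the pair differed by antibody: its ranks among the shared regions were 79.7 (SMC1), 42 (RAD21) and 70.1 (SMC3) in EV and 72.5, 44.6 and 71 in BORIS. RAD21 thus ranked it lower than SMC1 and SMC3 did in both lines, while ranking the second of the pair higher than they did.

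After a further 90.1 kb with no cohesin region, a middle stretch of 470 kb, chr12:114816466-115286530, held 19 merged regions with a median spacing of 23.1 kb. Its density, 31.9 to 40.4 regions per Mb depending on the list, was above that of the first 0.4 Mb in 5 of the 6 lists. Of its regions, 10 were called in all 6 lists, and none of the 19 in a single list. The strongest named here, chr12:114954662-114954953, had folds of 19.2, 11.4 and 26.1 in EV and 15.6, 12.5 and 19.3 in BORIS. As at the first region of the pair, RAD21 ranked it lower among the shared regions, at 42.9 against 67.5 for SMC1 and 70.2 for SMC3 in EV, and at 55.4 against 72 and 70.8 in BORIS.

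Then followed 1.11 Mb, chr12:115286531-116397729, with no region common to the 6 lists. It held 11 merged regions, of which 6 were called in 1 list alone, and 0 (SMC1, both lines) to 6 (RAD21 in EV) regions per list. The rest of the locus, chr12:116397730-117260000, held 28 merged regions, 3 of them in all 6 lists. Cohesin there was thinly spread, with a median spacing of 35.5 kb. Percentiles in this upper stretch had a median of 38.4, against 66 in the core of the array. The core was drawn from the first to the last array region in all 6 lists, which can raise its median. Over the whole array the median was 63.6.

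**Figure D3:**
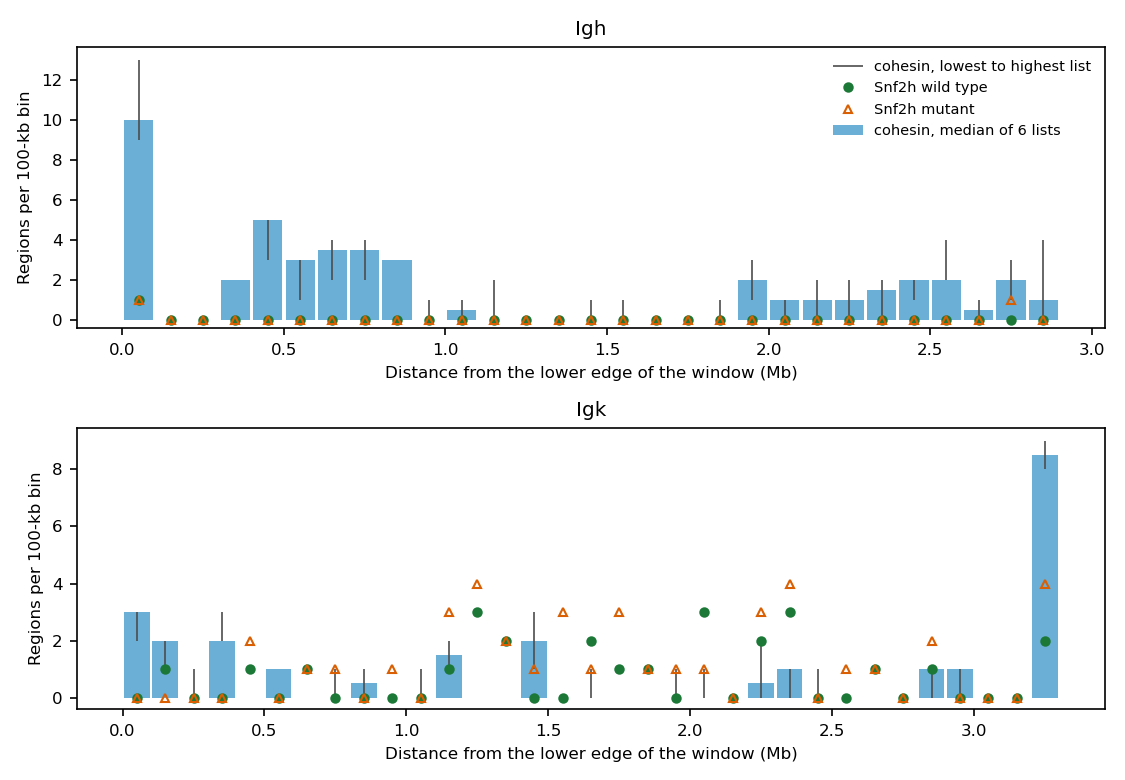
Regions per 100-kb bin along Igh (top) and Igk (bottom), by distance in Mb from the lower edge of the window. Bars are the median over the 6 cohesin lists, vertical lines run from the lowest to the highest list, and circles and triangles are the Snf2h counts in wild-type and mutant CH12. The first bin of Igh held 9 to 13 cohesin regions per list and the last bin of Igk 8 or 9. All other bins of Igk held few cohesin regions, so most Snf2h regions of Igk lie in such bins. The last bin of Igk held 2 wild-type and 4 mutant Snf2h regions.

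Some regions were called with the RAD21 antibody and not with SMC1 or SMC3 in either line, a class chosen after its values were seen. At Igh it took in 16 of 73 merged regions (21.9%, 13.1 to 33.1), against 3.83% genome-wide. At Igk it was 4 of 36 (11.1%, 3.11 to 26.1), an interval that includes the genome's share, and at Igl 1 of 6. All 16 at Igh lay above the middle stretch, 6 in the 1.11 Mb with no region common to the lists and 10 above it, and none in the array, the pair or the middle stretch. They were mostly weak, with pileups of 6 to 24 (median 11), folds of 3.61 to 13.1 (median 5.83) and percentiles of 1.06 to 63.7.

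Of these 16 regions, 5 were called with RAD21 in both lines; genome-wide, 10.3% of the 5773 regions with RAD21 alone were. The strongest, chr12:117241248-117241463, had a fold of 13.1 in EV (pileup 24, percentile 63.7) and 7.32 in BORIS (pileup 13, percentile 44.8). At chr12:116690943-116691106 the folds were 8.32 and 7.1, from pileups of 17 and 14. The other 11 were found in 1 list, 6 in EV and 5 in BORIS. RAD21 is also the antibody with the most regions at Igh in both lines: 1.38 times as many as SMC1 in EV (0.912 to 2.11) and 1.44 times in BORIS (0.912 to 2.3), whereas genome-wide it has 0.793 and 0.805 times as many. Against SMC3 the ratios were 1.32 (0.876 to 2) in EV and 1.11 (0.726 to 1.71) in BORIS, beside 0.838 and 0.763 genome-wide, and the BORIS interval includes the genome's ratio. Among all merged regions of Igh, 90.4% had a RAD21 call in some list, 65.8% an SMC1 call and 69.9% an SMC3 call, against 63.1%, 81.3% and 80.7% genome-wide. At Igk the shares were 80.6%, 66.7% and 83.3%, with SMC3 the highest. The share of regions with RAD21 alone at Igh was 17.1% among regions with −log10 q at or above 10 (genome 3.81%) and 32.4% with equal numbers of regions per list (genome 7.9%). At Igk the same settings gave 5.26% and 21.9%, and at Igl 33.3% and 40%. In windows widened by 100 kb the shares were lower, at 16.8% (Igh), 9.26% (Igk) and 7.69% (Igl). These alternatives were added after seeing the data.

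RAD21 also ranked most shared regions of Igh higher than SMC1 did. In EV, 19 of the 24 Igh regions ranked higher with RAD21 than with SMC1, with a median difference of 10.2 points. In BORIS 17 of 24 did, with a median of 14.4 points. The medians over the 1948 such regions of chromosome 12 were −0.187 and 1.22 points. The same lean was seen at Igk, with 10 (EV) and 11 (BORIS) of 14 regions and medians of 4.78 and 16.2 points, and at Igl with 2 of 2 in each line. Against SMC3, 15 (EV) and 17 (BORIS) of the 24 Igh regions ranked higher with RAD21. Above the first 0.4 Mb of Igh, 6 of 13 did so in EV (median −1.11) and 8 of 13 in BORIS (median 6.44).

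Between the lines, the same 24 regions moved in both directions. The median rank shift (BORIS minus EV) was −2.7 points with SMC1, 0.633 with RAD21 and −1.7 with SMC3, with single regions from −40.7 to 22.9. The mean with RAD21 had the other sign, at −2.63. Chromosome 12 as a whole shifted by −5.11, −3.78 and −4.06 points. Of the 24 regions, 7 (29.2%) ranked lower in BORIS with each antibody, against 26.3% genome-wide, and 7 (29.2%) ranked higher with each, against 25.3%. These counts are near the background.

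**Figure D4:**
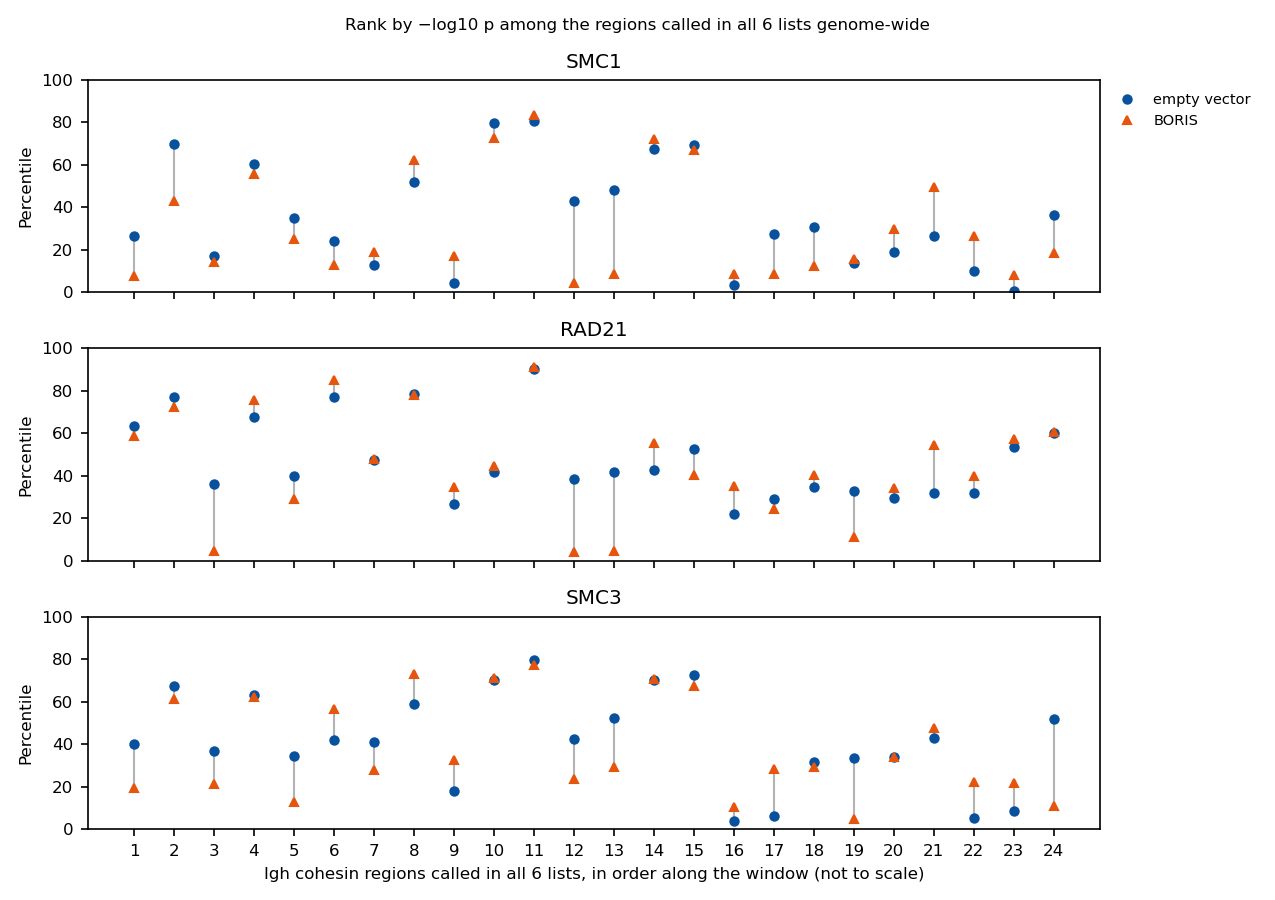
Percentile by −log10 p of the 24 Igh cohesin regions called in all 6 lists, among all such regions of the genome, in their order along the window (x axis, not to scale). Circles are EV and triangles BORIS, with 1 panel per antibody. Regions 12 and 13, the lowest of the middle stretch, fall in BORIS with every antibody by 18.9 to 39.3 points, and regions 20 to 23 rise with every antibody.

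A run of neighbouring regions lay lower in BORIS with each antibody or was not called there. The lowest 6 regions of the middle stretch, chr12:114816466-114940394, a group chosen after its values were seen, were all called with the 3 antibodies in EV. In BORIS, 5 of the 6 were called with SMC1, 3 with RAD21 and 6 with SMC3. Of the 65670 merged regions of the genome called with the 3 antibodies in EV, 88.8% were called in BORIS with SMC1, 85.1% with RAD21 and 91.9% with SMC3. Where they were called, each had a lower percentile in the BORIS list than in the EV list of the same antibody. In EV their percentiles had medians of 66.5 (SMC1), 60 (RAD21) and 67.8 (SMC3), and in BORIS, over those called, of 24.2, 12 and 55.8. These are percentiles of lists of different length. The medians differed least with SMC3, whose BORIS list is the longest of the 6.

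Of these regions, 2 were called in all 6 lists and could be ranked over the common set. The first, chr12:114816466-114816823, went from 42.8 (SMC1), 38.3 (RAD21) and 42.5 (SMC3) in EV to 4.46, 4.26 and 23.5 in BORIS. The second, chr12:114849184-114849456, went from 48.2, 42 and 52.4 to 8.86, 4.77 and 29.3. Both fell by more than chromosome 12 did, with every antibody. Their pileups were 30, 27 and 32 in EV against 12, 10 and 21 in BORIS at the first, and 28, 23 and 35 against 11, 9 and 18 at the second. At the other end of the same stretch the direction was the opposite: chr12:115286270-115286530 rose by 22.9 (SMC1), 22.6 (RAD21) and 4.79 (SMC3) points. The BORIS clone and its libraries cannot be told apart as the source of these shifts.

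Snf2h at Igh was confined, in these 2 lists, to the ends of the window. The wild-type region, chr12:114463677-114463902, lay 2.39 kb above the end of the cohesin array and was weak, at percentile 2.64 of its list with a fold of 2.41 (pileup 26). The mutant had chr12:114406201-114406994 at the lower edge, with a fold of 4.97 (pileup 25, percentile 73.2), and chr12:117151211-117151481 near the upper edge, with a fold of 5.03 (pileup 17, percentile 57.3). None of the 3 was shared between the lines, and none overlapped a cohesin region. Between them, chr12:114463903-117151210, 2.69 Mb, held no Snf2h region of either line. With 1 region against 2, the ratio of mutant to wild type was 2 (0.104 to 118), which leaves no difference to read.

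At Igk, Snf2h regions ran through the locus, 25 of them wild-type and 40 mutant. The ratio of mutant to wild type was 1.6 (0.947 to 2.75), beside 1.38 (1.35 to 1.41) for the whole lists. With equal numbers of regions in the 2 lists, Igk held 25 wild-type and 27 mutant regions. Neighbouring summits lay 64.9 kb apart in the median in wild type and 38.9 kb in the mutant, against 40.8 and 28 kb genome-wide. In wild type no 2 summits of Igk lay within 5 kb of each other, and in the mutant 5 of 39 intervals (12.8%) did, against 11.3% and 13.2% genome-wide.

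Of the 25 wild-type regions, 11 (44%, 24.4 to 65.1) shared no base with a mutant region, against 38.8% of the whole list. Of the 40 mutant regions, 26 (65%, 48.3 to 79.4) were private, against 56.1%. Both shares lie near the background, and the intervals include it. With equal numbers of regions, 15 wild-type and 17 mutant regions were private. With −log10 q at or above 10, 2 were private in each line and none was shared. The 14 shared regions had a median rank shift (mutant minus wild type, among the 10398 pairs of the genome) of 3.66 points, with 9 higher and 5 lower in the mutant and single shifts from −52.9 to 57.5. Shared regions of chromosome 6 had a median shift of 1.24, and the median of the 14 was 1.6 when ranked by fold.

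The shared regions named are the 3 of highest −log10 p. At chr6:69449980-69450509 the wild-type fold was 3.01 (pileup 19) and the mutant fold 4.89 (pileup 33), and its rank rose from 4.82 to 62.3. At chr6:67925205-67925466 the fold was 5.34 (pileup 29) and 4.64 (pileup 17), and the rank went down from 75.3 to 28.4. The pair moved in opposite directions by about as much. At chr6:68654209-68654715 the wild-type fold was 2.94 and the mutant fold 4.32, with ranks of 14.5 and 49.7.

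Regions private to a line at Igk were of middling strength. The strongest in wild type was chr6:69794100-69794370, with a fold of 5.93, a pileup of 32 and percentile 88.2 of its list. It was followed by chr6:69763218-69763438 (fold 4.28, pileup 36) and chr6:68834209-68834401 (fold 4.21, pileup 28). In the mutant the strongest was chr6:68630716-68631045, with a fold of 5.1, a pileup of 35 and percentile 83.5. The next were chr6:68377759-68377946 (fold 5.87, pileup 20) and chr6:70009142-70009846 (fold 4.89, pileup 23). None of these 6 overlapped a cohesin region, and none ranked in the top 10% of its list. The median percentile of the 11 wild-type private regions was 52, above the 33.6 of the 14 shared ones, whereas genome-wide private regions have the lower median (32.8 against 63.5). In the mutant the order was that of the genome, 35.2 for private and 47.2 for shared regions.

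Snf2h and cohesin regions of Igk rarely coincided. In wild type 1 of 25 Snf2h regions (4%, 0.101 to 20.4) overlapped a merged cohesin region, and in the mutant 2 of 40 (5%, 0.611 to 16.9), against 34.4% in both whole lists. The intervals lie below that share. Their median distance to the nearest cohesin region was 30.6 kb for wild-type and 29.8 kb for mutant regions. The part that the low cohesin density of Igk, given above, has in these shares was not tested. The wild-type overlap was chr6:70747915-70748119, and those of the mutant were chr6:70659218-70659673 and chr6:70718853-70719045. All 3 lay in the last 0.1 Mb, and each met a cohesin region called in all 6 lists.

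Cohesin at Igk fell into 3 pieces. The lower piece, 1.46 Mb, held 18 merged regions, 8 of them in all 6 lists, with a median spacing of 62.4 kb. Next came 1.74 Mb, chr6:68914318-70659252, with no region common to the 6 lists and 1 to 6 regions per list. The same stretch, 1.74 of the 3.30 Mb of the window, held 14 of the 25 wild-type and 23 of the 40 mutant Snf2h regions. These counts are near its share of the length. The upper piece, the last 90.7 kb, held 9 merged regions, 6 of them in all 6 lists, with a median spacing of 4.22 kb. In the last 0.1 Mb the density was 80 to 90 cohesin regions per Mb in every list, above the genome's, against 3.44 to 5.94 per Mb in the remaining 3.20 Mb. The last 0.1 Mb also held 2 wild-type and 4 mutant Snf2h regions, or 20 and 40 per Mb, against 7.19 and 11.3 in the remainder.

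The upper piece opens with 4 merged regions within 5.37 kb, chr6:70659253-70664626. The last of these, chr6:70664173-70664626, had the highest fold of the locus with SMC1 and SMC3. Its folds were 45.9 (SMC1), 35.2 (RAD21) and 48.4 (SMC3) in EV, from pileups of 97, 71 and 107, and 30.5, 26.8 and 37 in BORIS, from pileups of 68, 54 and 81. Its ranks among the shared regions were 92.1, 75.8 and 89.4 in EV and 91.6, 78.9 and 89.5 in BORIS, with RAD21 the lowest in both lines. The first, chr6:70659253-70660001, had RAD21 as the highest instead, with ranks of 52.3, 80.5 and 46.2 in EV and 40.6, 80.8 and 42.6 in BORIS. Between them, chr6:70663172-70663427 ranked near the middle of the shared set in each list, from 44.4 to 56.9.

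A further 2 named regions of Igk lay in its lower piece. At chr6:67649061-67649389 the folds were 24.8, 30.9 and 25.4 in EV and 17.3, 30 and 26.6 in BORIS. At chr6:67762530-67762803 they were 13.6, 20.8 and 20.7 in EV and 11.9, 18.8 and 17.9 in BORIS. Both kept their rank among the shared regions to within 10.3 points with each antibody. The fifth, chr6:70718754-70719120 in the upper piece, had folds of 8.4, 25.9 and 12.4 in EV and 7.33, 9.57 and 9.08 in BORIS. Its RAD21 rank fell by 20.8 points, while its SMC1 rank moved by 3.07 and its SMC3 rank by −7.81.

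Over the 14 regions of Igk called in all 6 lists, the median rank shift (BORIS minus EV) was −3.43 with SMC1, 4.29 with RAD21 and −0.97 with SMC3. Ranked by fold, the SMC3 shift had the other sign, at 1.01. The antibodies differed in sign, and single regions ran from −32.3 to 18.2. Of these regions, 3 (21.4%) ranked lower in BORIS with each antibody and 1 (7.14%) higher with each, against 26.3% and 25.3% genome-wide.

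Igl held few regions. All 4 wild-type Snf2h regions overlapped a mutant region (exact interval for the share 39.8 to 100), against 61.2% of the whole wild-type list, and 2 of the 6 mutant regions (33.3%, 4.33 to 77.7) were private, against 56.1%. Both intervals include the share of the whole list. The ratio of mutant to wild type was 1.5 (0.356 to 7.23). The strongest, chr16:19249945-19250338, had a fold of 5.49 in wild type (pileup 42, percentile 90.9) and 7.92 in the mutant (pileup 69, percentile 96.3). It is the 1 Snf2h region of the 3 loci in the top 10% of both lists. At chr16:19185807-19186112 the fold was 2.77 (pileup 26) and 4.49 (pileup 42), and at chr16:19002919-19003196 it was 2.61 (pileup 23) and 3.49 (pileup 30). All 4 shared regions ranked higher in the mutant, by 3.38 to 57 points with a median of 19.4 (10.2 when ranked by fold), where chromosome 16 as a whole had a median of −1.76. The 2 mutant-private regions were chr16:19146405-19146721 (fold 4.23, pileup 31) and chr16:19179328-19179514 (fold 2.79, pileup 23).

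Cohesin at Igl had 2 regions in all 6 lists, one at the lower edge and one near the middle of the window. At chr16:19003100-19003417 the folds were 14.5 (SMC1), 21.7 (RAD21) and 15.9 (SMC3) in EV and 7.09, 19 and 12.4 in BORIS. At chr16:19146360-19147110 they were 11.1, 19.6 and 13.4 in EV and 5.54, 13.3 and 11.7 in BORIS. Both ranked lower in BORIS with SMC1, by −23.9 and −32.4 points, and moved by 6.96 and −3.5 with RAD21 and by 2.01 and 0.533 with SMC3. A fall as large as that with SMC1 was thus not seen with the other 2 antibodies. Both regions were also met by Snf2h: the lower one by a region of each CH12 line, and the middle one by the mutant-private region chr16:19146405-19146721, which lies whole within it. At the lower one the shared stretch was 97 bp in wild type and 18 bp in the mutant. The same Snf2h regions shared 91 and 140 bp with a neighbouring cohesin region, chr16:19002727-19003058, called in 5 lists. In all, 1 of 4 wild-type (25%) and 2 of 6 mutant Snf2h regions (33.3%) of Igl overlapped cohesin, near the 34.4% of the whole lists.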

How the data were processed

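Called regions of 8 ChIP-seq libraries were deposited as narrowPeak tables. Per the submitters' processing notes, Bowtie, Bowtie2 (version 2), SAMtools, MACS2 and deepTools 3.5.0 were used and mm9 and hg19 named; caller settings, controls and filters are not given in the sources used here. The authors deposited for each region a score, a fold over background (a ratio), a −log10 p and a −log10 q, each the region's own value, used to describe, rank or filter within a list. The lowest −log10 q was 1.3. The names of Snf2h regions carry a tag that may mean pooled replicates; each list counts as 1 sample. Total reads are unknown from the lists. From fold and −log10 p, the pileup and background rate at each summit were recovered; 100% of pileups with −log10 p under 300 were whole within 0.001.

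Regions were counted by any overlap with the window. Intervals are exact Poisson or Clopper-Pearson at 95% and cover counting error only; for a count of 0 the limit is 3 counts over the total. Snf2h regions were private when they shared no base with the other line. In each locus, the 3 regions of highest −log10 p per Snf2h class were named, and for cohesin the 5 in all 6 lists (and up to 3 private) with the highest lowest percentile. Members, lists and rules were chosen with earlier results of these data known. Scripts ran in Python 3.11.15 (numpy 2.4.6, pandas 2.3.3, scipy 1.17.1, matplotlib 3.10.9) and were tested on simulated data.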

Additional observations from a re-analysis of the deposited data

How the results depend on the processing

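Of 190 values recomputed under other settings, 149 stayed within the spread or interval of the reported value (counts: within 1.5 times) and 41 moved. Some of the 149 could not move: equal numbers left the wild-type Snf2h list whole, and the mean of 2 cohesin shifts at Igl is also their median. The margin of a rank shift was the standard deviation over regions, so a change of sign could pass, as with RAD21 at Igh (0.633 to −2.63). Each group has 1 library, no paired test was made and no result comes from a test. Lists of the same antibody were matched between the NIH3T3 lines for description only. With −log10 q at or above 10, few Snf2h regions were left: density relative to the genome was 0 at Igh in both lines and 0.534 (wild type) and 0.3 (mutant) at Igk, and private regions numbered 0 and 0 at Igh, 2 and 2 at Igk with 0 shared, and 1 in the mutant at Igl with 1 shared. Snf2h spacing at Igk then came to 1870 kb (wild type) and 819 kb (mutant), and overlap with cohesin to 0% in both lines at Igk and Igl. Cohesin regions in all 6 lists fell to 9 at Igh and 1 at Igl, EV-private ones came to 2 at Igh and 0 at Igk, and cohesin spacing at Igk to 40.5 kb. With equal numbers of regions, mutant-private Snf2h regions were 17 at Igk and 1 at Igl, and EV-private cohesin regions 0 at Igh. Windows widened by 100 kb gave a cohesin density at Igk of 0.262 times the genome, 2 wild-type-private and 2 shared Snf2h regions at Igh, 1 wild-type-private at Igl, and 3 (Igh) and 1 (Igl) BORIS-private cohesin regions. With at least 2 antibodies, Igh had 3 EV-private and 3 BORIS-private regions. Leaving out SMC1 gave 2 EV-private and 2 BORIS-private regions at Igh and 2 EV-private at Igk; leaving out RAD21 gave 3 EV-private at Igh and 3 at Igk; leaving out SMC3 gave 4 EV-private and 1 BORIS-private at Igh. Ranked by fold, the SMC3 shift at Igl was −0.0409 points (1.27 by −log10 p). Counts this small limit every comparison of private regions, and regions absent from a list were not detectable at its depth rather than shown to be unbound.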
